A study of Homo sapiens with 6 samples.

Results

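Neurons move amino acids and small transmitters across their membranes with carriers of the solute carrier (SLC) superfamily. The genes described here are those of 9 of its families, SLC1, SLC3, SLC6, SLC7, SLC17, SLC18, SLC32, SLC36 and SLC38, taken by gene symbol (the family number, the letter A and a member number). The rule used no measured value, but it was set with earlier results of these data known. The table held 46 such genes among 19823, and 43 of them were among the 18130 genes tested. Poly(A) RNA was sequenced from glutamatergic neurons (iNeurons) differentiated with doxycycline-inducible neurogenin 2 from human WTc11 induced pluripotent stem cells, an established line. In both groups the RNA-binding protein RBM12 was knocked down by CRISPR interference through dCas9-KRAB. The line was derived from 1 clone, and neurons came from the parental form of it, in which the β2-adrenergic receptor is the cell's own. The groups were 3 untreated samples and 3 samples given isoproterenol, an agonist of this receptor that raises cAMP, at a dose and for a time that the labels do not give. The comparison asks how transcripts respond to the receptor in neurons depleted of RBM12.

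The families have distinct roles. SLC1 carriers take up glutamate and neutral amino acids with sodium. SLC6 carriers take up GABA, glycine, monoamines, taurine and creatine with sodium and chloride. SLC7 proteins are cationic amino acid transporters or light chains that pair with an SLC3 heavy chain to exchange amino acids. SLC17, SLC18 and SLC32 include the proteins that fill synaptic vesicles with glutamate, with acetylcholine or monoamines, and with GABA or glycine. SLC36 carriers move amino acids with protons, many of them out of lysosomes, and SLC38 carriers move glutamine and other neutral amino acids, which neurons use as precursors of glutamate and GABA.

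Recovered reads summed to 18116816 to 21488793 per sample. All 10 genes listed as glutamatergic neuron markers had a mean above 10 normalized counts (reads divided by a size factor per sample). They ran from TUBB3 at 77.7 ± 2.30 in untreated samples to the neurofilament gene NEFL at 289380 ± 5204. Several, such as TUBB3 and NEFL, mark neurons in general, so the sum of the list does not tell transmitter types apart. That sum, most of it NEFL, ran from 404023 to 415726 in untreated and from 395224 to 405913 in isoproterenol samples. With the replicate number as a block in the limma test, NEFL was called lower and GRIN1, a glutamate receptor subunit, higher, with log2 fold changes of -0.05 and 0.29 (limma adjusted p 2.68e-04 and 2.67e-04), and their part in the results was not tested. Cholinergic and monoaminergic markers summed to 7398 to 9060 and 8103 to 9619, most of it from SLC5A7, the choline transporter. Values were held for 3 of 7 listed GABAergic, 2 of 5 astrocyte, 2 of 5 pluripotency and 1 of 5 cycling-cell markers. The 3 GABAergic markers summed to 38.7 to 50.7 in untreated and 56.5 to 74.9 in isoproterenol samples. The 2 astrocyte markers summed to 160 to 175 and 134 to 157, respectively, and the 2 pluripotency markers to 19.4 to 19.8 and 14.4 to 28.8. The cycling-cell marker, CCNB1, had 112 to 147 and 123 to 145. RBM12 had 263 ± 17.4 normalized counts without and 222 ± 23.6 with isoproterenol (mean ± SD, n = 3 per group, as throughout). It was lower in each pair, by -0.33, -0.23 and -0.20 on the log2 scale. The log2 fold change of -0.25 was not called (limma adjusted p 0.607, and 0.131 with the block). Control-guide neurons were not analysed here. In bulk RNA, fewer cells of a type and less RNA per cell cannot be told apart. No label says that replicates came from separate cultures, so p-values measure only the spread between these samples, which may be technical. In limma this spread is moderated, so the variance used for a gene also draws on those of other genes.

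By level, vesicular glutamate and acetylcholine transporters and glutamine carriers led the members. Levels of different genes are compared as normalized counts per kilobase of the canonical transcript. SLC17A6, the vesicular glutamate transporter VGLUT2, was the highest member, at 3668 per kilobase in untreated and 3713 in isoproterenol samples. It was followed by SLC38A1, a glutamine transporter of neurons (mean over all samples 1436 per kilobase), SLC38A2, a second sodium-coupled neutral amino acid transporter (1102), SLC18A3, the vesicular acetylcholine transporter (1078), and SLC17A7, the vesicular glutamate transporter VGLUT1 (1057). The values of SLC38A2, SLC18A3 and SLC17A7 overlapped across samples, so their order was not resolved. Per kilobase of all annotated exons SLC17A6 and SLC38A1 were again the highest, while SLC17A7 had 521 and fell below SLC18A3 (1078), SLC38A2 (812) and SLC6A17 (617). The SLC17 family took 30.5% to 32.5% of the summed per-kilobase level of the 46 members in each sample, and the SLC38 family 19.2% to 21.1%. The other end of the scale held SLC32A1, the vesicular GABA transporter, at 6.63 per kilobase, SLC7A11, the cystine-glutamate exchanger, at 3.48, and SLC6A3, the dopamine transporter, at 2.05.

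**Figure D1:**
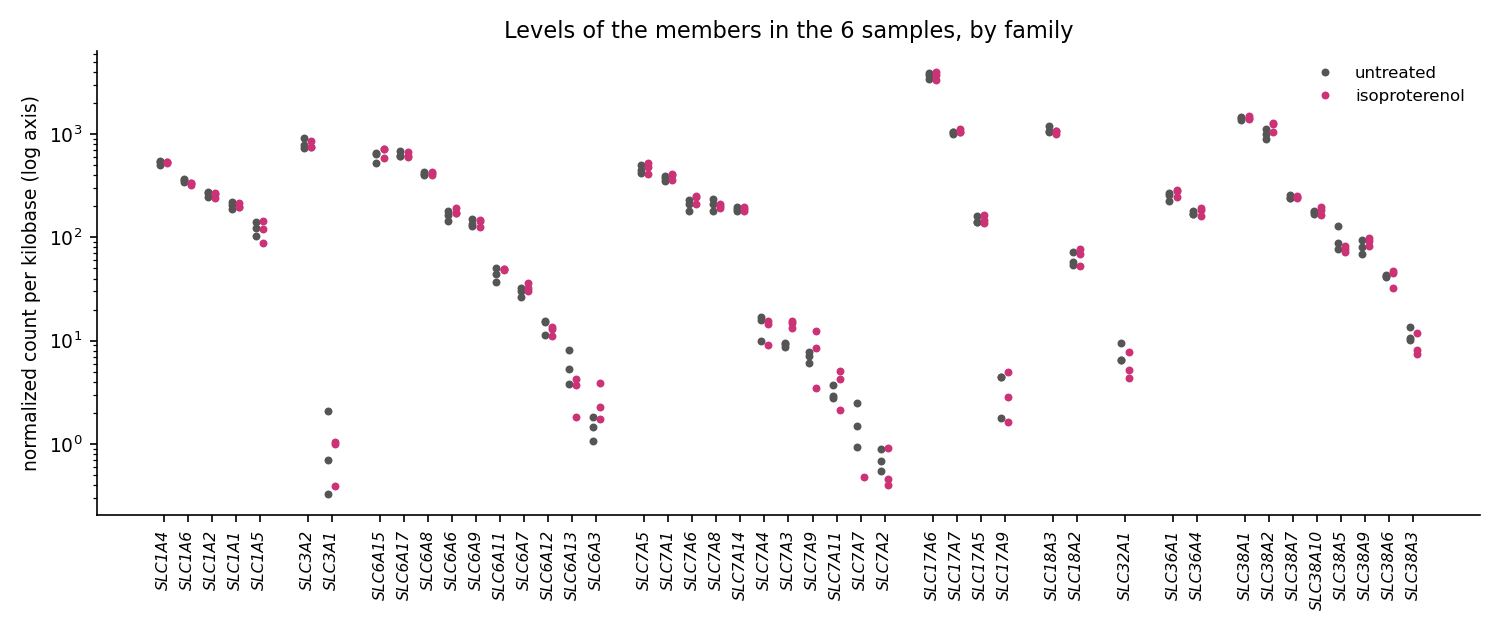
Normalized counts per kilobase of the canonical transcript (log axis) of 45 of the 46 members, grouped by family and ordered by mean within each. Each point is 1 of the 3 untreated (grey) or 3 isoproterenol (pink) samples. SLC17A6 stood highest, the groups lay close together in most genes, and the scatter widened below about 10 per kilobase. SLC7A7 was at 0 in 2 isoproterenol samples, which are not drawn.

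SLC3A1, SLC7A2 and SLC7A7 were too low to be tested, with between 0 and 6.98 normalized counts in every sample. A further 23 protein-coding genes of these families, among them SLC1A3, SLC17A8, SLC6A2 and SLC6A4, were not analysed here.

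Between the groups, no (0) tested member passed FDR 0.05 when samples were compared without regard to replicate number (limma, Benjamini-Hochberg over all genes tested), and 2 (4.65%) had an unadjusted p under 0.05. Over all genes tested, 0.0165% passed and 7.68% had an unadjusted p under 0.05. edgeR and DESeq2 without the replicate numbers also called 0 members, with 3 under an unadjusted p of 0.05 in each. Samples of the same number deviated together, however, and with the replicate number as a block the same limma test called 4 members, all higher with isoproterenol: SLC38A2, SLC6A15, SLC7A6 and SLC36A1. This was 9.30% of the tested members, against 2.82% of all genes tested that were called higher with the block. No (0) member was called lower, against 2.06% of all genes, and the block left 9 members (20.9%) below an unadjusted p of 0.05, against 16.2% of all genes. edgeR with the block called the same 4 members, while 529 of the 18130 genes tested were called higher. DESeq2 with the block called 1 member, SLC38A2, while 94 genes were called higher and 5976 had no adjusted p. In that DESeq2 fit the adjusted p was 0.0711 for SLC6A15, 0.210 for SLC7A6 and 0.679 for SLC36A1.

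SLC38A2 (SNAT2), which takes up glutamine, alanine and other neutral amino acids and is induced when amino acids run short, had the clearest difference. Untreated replicates 1 to 3 had 5332, 4259 and 4779 normalized counts, and the isoproterenol replicates, in the same order, 6185, 5065 and 6075. The isoproterenol sample was higher in each pair, by 0.21, 0.25 and 0.35 on the log2 scale, although replicate 2 with isoproterenol lay below untreated replicate 1, so the groups overlapped. The log2 fold change was 0.27 (SE 0.027 with the block, 95% interval 0.22 to 0.32; limma adjusted p 4.13e-14 with the block and 0.651 without it). The pair differences of 0.21 and 0.35 lie outside this interval, whose SE also draws on the variance of other genes. The gene lies on chromosome 12 from 46358188 to 46372773 (GRCh38, minus strand), and its exons share no bases with another gene. 

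SLC6A15 (B0AT2), a neuronal carrier of branched-chain amino acids and proline, had 3147, 2540 and 3065 normalized counts in the untreated and 3476, 2839 and 3481 in the isoproterenol replicates. Its pair differences, 0.14, 0.16 and 0.18 on the log2 scale, lay close together, while replicate 2 was far below the other replicates in both groups. This gave a log2 fold change of 0.16 (SE 0.031 with the block; limma adjusted p 1.17e-04 with the block and 0.794 without it). With a single sample left out and its pair thus broken, the value was as low as 0.066 (untreated replicate 2 left out) and as high as 0.26 (isoproterenol replicate 2 left out), while with whole pairs left out it was 0.15 to 0.17. The gene is on chromosome 12 from 84859491 to 84913629 (minus strand) with no shared exonic bases.

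SLC7A6 (y+LAT2), a light chain that exchanges arginine for glutamine and other neutral amino acids, had 1315, 1129 and 1438 normalized counts in the untreated and 1545, 1331 and 1563 in the isoproterenol replicates. Each pair was higher with isoproterenol, by 0.23, 0.24 and 0.12, and the groups overlapped through replicate 2. The log2 fold change was 0.20 (SE 0.043 with the block; limma adjusted p 9.53e-04 with the block and 0.635 without it), and 0.10 when untreated replicate 2 alone was left out. The gene (chromosome 16, 68264516 to 68301823, plus strand) shares 4217 exonic bases with genes on the opposite strand, SLC7A6OS among them, and the strand setting of the counting is not stated, so its level is uncertain. Among the 46 members, 20 share exonic bases with opposite-strand genes, SLC7A6 the most, and the same limit holds for the others. SLC7A6OS itself had 396 ± 33.7 normalized counts without and 345 ± 39.6 with isoproterenol, a log2 fold change of -0.20 that did not pass (limma adjusted p 0.651, and 0.170 with the block).

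SLC36A1 (PAT1), a proton-coupled carrier of small amino acids found on lysosomes and the cell surface, had 1472, 1312 and 1539 normalized counts in the untreated and 1643, 1427 and 1674 in the isoproterenol replicates. The 3 pairs were higher by 0.16, 0.12 and 0.12, and the groups overlapped. The difference was 0.13 on the log2 scale (SE 0.041 with the block; limma adjusted p 0.0384 with the block and 0.679 without it), 0.067 when untreated replicate 2 and 0.21 when isoproterenol replicate 2 alone was left out. This was the least firm of the 4 calls, since it was lost whenever 1 of the 3 pairs was left out, whereas SLC38A2, SLC6A15 and SLC7A6 were called with any pair left out. The gene is on chromosome 5 from 151437046 to 151492379 (plus strand) with no shared exonic bases.

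**Figure D2:**
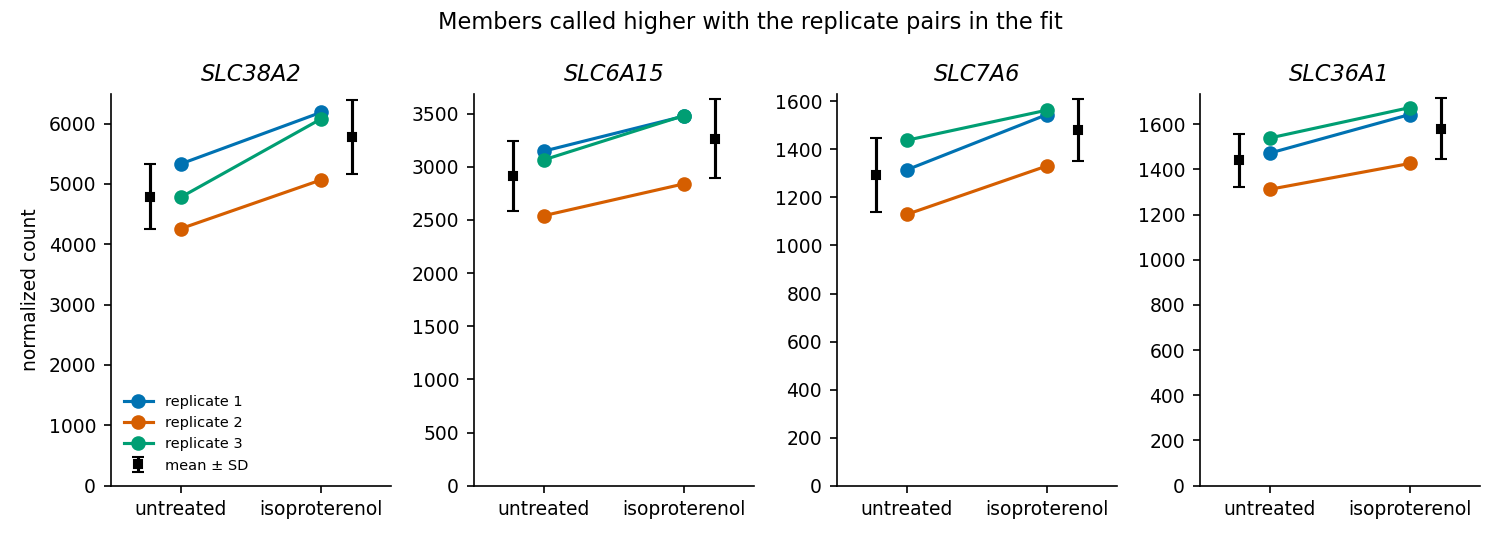
Normalized counts of SLC38A2, SLC6A15, SLC7A6 and SLC36A1 in untreated and isoproterenol samples. Lines join samples of the same replicate number, and squares with bars are group means ± SD (n = 3). Every line ascends, from 0.12 to 0.35 on the log2 scale, and replicate 2 is the lowest of its group in every panel.

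The promoters of the called members are shown because cAMP acts in part through a DNA element in promoters, the cyclic AMP response element, with the letters TGACGTCA and the core TGACG. RefSeq promoters (GRCh38.p14, 250 bases before to 50 after the start site) were held for 33 of the 46 members, SLC6A15 not among them. On either strand, the core was in the promoter of 19 of these 33 (57.6%), against 28.4% of the 27305 genes in the promoter table and 39.6% of those also tested here. The full element overlaps the core and was in 1 member, SLC18A2, which encodes the vesicular monoamine transporter (3.03%, against 2.25% of genes in the promoter table and 3.66% of those tested). The amino acid response element, TGATGNAAN, was in 6 members, SLC1A4, SLC1A5, SLC3A2, SLC7A1, SLC17A7 and SLC38A1 (18.2%, against 4.45% and 2.82%), and in none (0) of the 3 called members with a promoter in the table. Introns and other sequence outside this window were not searched, so a gene without a match here may hold the element elsewhere. The 250 bases before the start site of 3 called members follow, 5′ to 3′ on the gene's strand, with cores in capitals. SLC36A1 has a second start site in the table, without a core in its promoter.
SLC38A2, chr12:46372774-46373023, minus strand: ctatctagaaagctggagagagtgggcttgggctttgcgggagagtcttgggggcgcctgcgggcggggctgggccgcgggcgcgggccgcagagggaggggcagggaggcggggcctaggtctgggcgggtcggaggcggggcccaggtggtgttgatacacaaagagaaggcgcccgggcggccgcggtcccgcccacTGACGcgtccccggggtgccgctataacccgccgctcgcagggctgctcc
SLC7A6, chr16:68264276-68264525, plus strand: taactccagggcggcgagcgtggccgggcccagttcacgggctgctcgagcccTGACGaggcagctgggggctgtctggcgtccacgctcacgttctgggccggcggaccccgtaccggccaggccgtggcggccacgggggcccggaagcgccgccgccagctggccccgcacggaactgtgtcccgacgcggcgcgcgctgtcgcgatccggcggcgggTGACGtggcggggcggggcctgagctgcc
SLC36A1, chr5:151436796-151437045, plus strand: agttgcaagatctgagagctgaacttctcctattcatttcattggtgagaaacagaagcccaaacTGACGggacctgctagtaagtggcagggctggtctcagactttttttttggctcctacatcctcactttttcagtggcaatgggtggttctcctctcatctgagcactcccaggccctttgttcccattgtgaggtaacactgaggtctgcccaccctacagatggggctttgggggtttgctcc
The core began 50 bases before the start site in SLC38A2, 197 and 29 bases before it in SLC7A6, and 185 bases before it in SLC36A1. Promoters of members that were not called held the core as well, among them those of SLC3A2, SLC6A17, SLC7A1 and SLC18A3.

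The vesicular transporters define what a neuron releases, and none (0) of those named was called in either fit. SLC17A6 had 14287, 12451 and 13587 normalized counts in the untreated and 14710, 12393 and 13716 in the isoproterenol replicates. The difference was 0.02 on the log2 scale, with a 95% interval of -0.02 to 0.06 with the block (limma adjusted p 0.772 with the block). With the block, the interval leaves room for changes of a few percent only. Without the block it was wider, at -0.14 to 0.17.

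SLC17A7 had 2968, 3101 and 3097 normalized counts in the untreated and 3116, 3318 and 3104 in the isoproterenol replicates. Here the groups did not overlap, with all 3 isoproterenol samples higher, yet the log2 fold change was 0.06 and did not pass (95% interval -0.01 to 0.12 with the block; limma adjusted p 0.807 without and 0.372 with it). Per kilobase, SLC17A6 was 3.54 ± 0.322 times SLC17A7 in untreated and 3.45 ± 0.406 times in isoproterenol samples, and the ratio was lowest in replicate 2 of both groups, at 3.23 and 3.01. Per kilobase of all annotated exons the ratio was 5.72 and 5.57 in the respective groups, so its size rests on the transcript length chosen.

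SLC18A3, whose single exon lies within the locus of CHAT (choline acetyltransferase), went from 2656 ± 199 to 2541 ± 106 normalized counts (log2 fold change -0.06; limma adjusted p 0.829). SLC18A2 was at 236 ± 37.9 and 254 ± 45.8 and was not called (limma adjusted p 0.913), and per kilobase SLC18A3 was 14.2 to 19.3 times SLC18A2 across the samples. The exons of SLC18A2 share 2326 bases with genes on the opposite strand. SLC32A1 had 16.7, 24.2 and 16.6 normalized counts in the untreated and 10.98, 19.6 and 13.3 in the isoproterenol replicates, lower in each pair but not called (log2 fold change -0.38, 95% interval -1.08 to 0.32 with the block; limma adjusted p 0.831). The GABA-synthesizing enzymes GAD1 and GAD2 had log2 fold changes of 0.74 and 0.49, opposite in sign to that of SLC32A1, and were not called either (limma adjusted p 0.650 and 0.690).

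**Figure D3:**
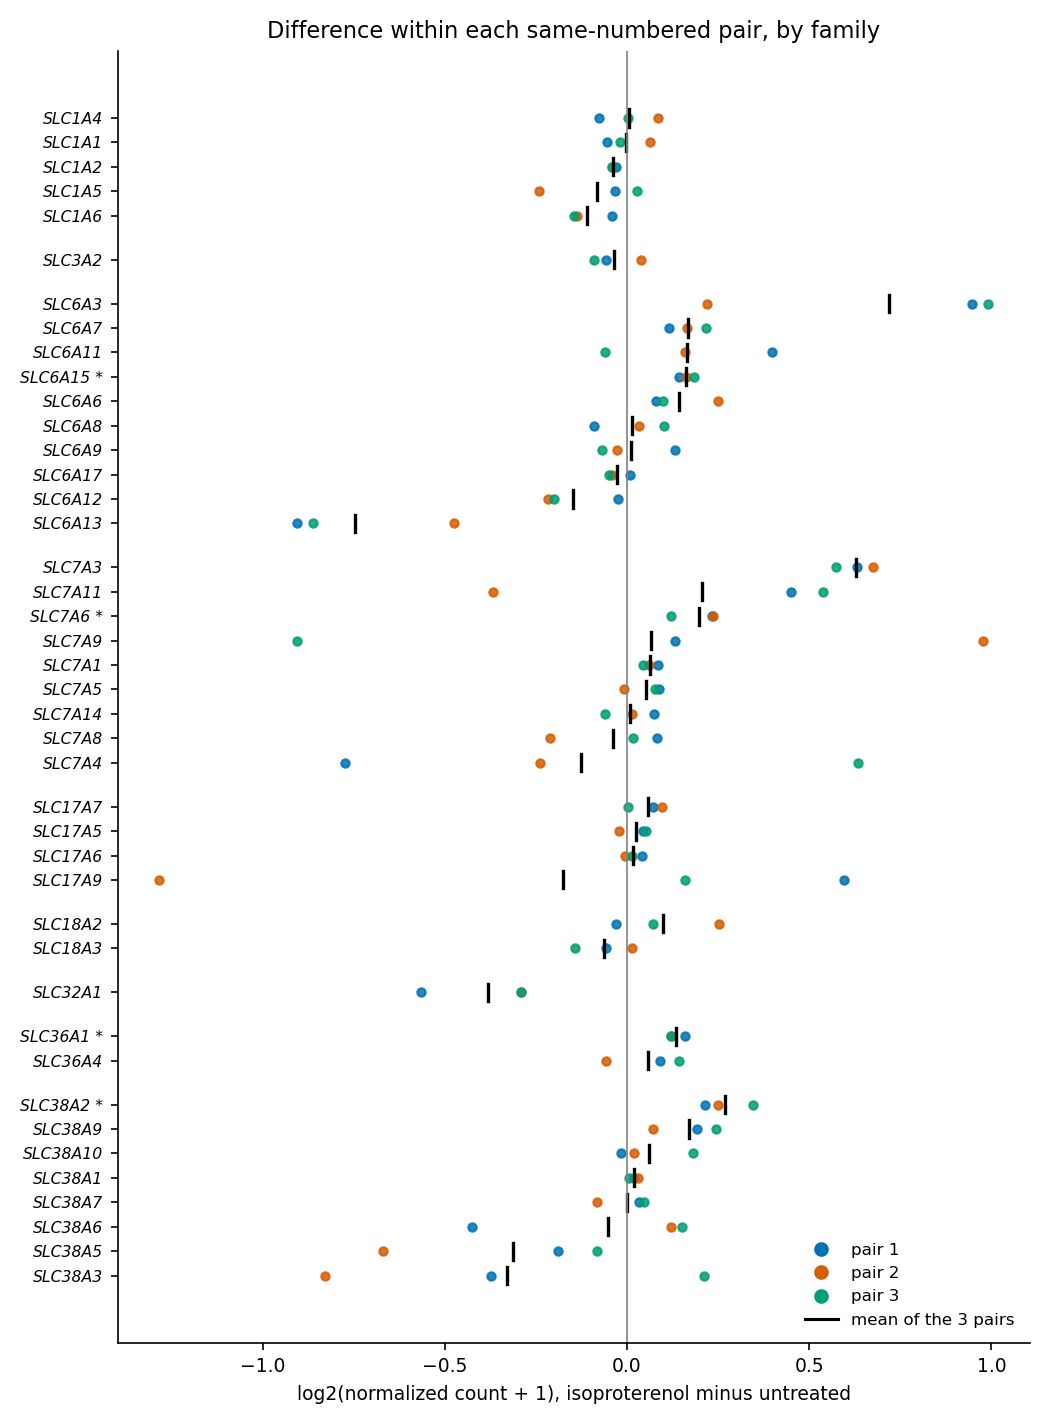
Difference in log2(normalized count + 1) between the isoproterenol and the untreated sample of each same-numbered pair (points), with the mean of the 3 pairs (black bar), for 42 of the 43 tested members by family. Asterisks mark the 4 members called with the replicate block. Their points cluster to the right of 0, while wide scatter is seen in members with few reads.

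Of the plasma membrane glutamate and neutral amino acid carriers of the SLC1 family, 4 of 5 had a negative log2 fold change and none (0) was called in either fit, with 1 below an unadjusted p of 0.05 under the block. SLC1A2 (EAAT2), known best as the glutamate transporter of astrocytes, had 3161 ± 165 normalized counts without and 3080 ± 166 with isoproterenol (log2 fold change -0.04; limma adjusted p 0.907). The neuronal glutamate transporter SLC1A1 (EAAT3) stayed at 757 ± 56.8 and 754 ± 39.9 (adjusted p 0.995). Which of them was higher depended on the length used: SLC1A2 was 1.11 to 1.45 times SLC1A1 across the 6 samples per kilobase of canonical transcript, and 0.630 to 0.823 times per kilobase of all annotated exons.

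SLC1A6 (EAAT4), the glutamate transporter best known from Purkinje cells, was the only member of at least 50 normalized counts whose isoproterenol values all lay below the untreated ones. It had 831, 892 and 863 normalized counts in the untreated and 807, 811 and 780 in the isoproterenol replicates. The pair differences were -0.04, -0.14 and -0.15, and the log2 fold change of -0.11 did not pass (limma adjusted p 0.709, and 0.299 with the block). Among the tested members, 3 had groups that did not overlap (6.98%), against 12.9% of all genes tested.

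In the SLC6 family, 7 of 11 members had a positive log2 fold change and SLC6A15 was the 1 called. SLC6A17, a vesicular neutral amino acid transporter of neurons and the member of this family with the most counts, was at 4133 ± 282 and 4053 ± 231 normalized counts (log2 fold change -0.03; limma adjusted p 0.935). The glycine transporter SLC6A9 (GlyT1) stood at 444 ± 37.3 and 448 ± 38.2, and SLC6A3 at 5.74 ± 1.53 and 10.4 ± 4.42, neither of which was called (adjusted p 0.985 and 0.751).

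The taurine transporter SLC6A6 (TauT) came closest to the threshold among the members not called. It had 1069, 935 and 1160 normalized counts in the untreated and 1130, 1112 and 1241 in the isoproterenol replicates, higher in each pair. On the log2 scale it differed by 0.14 (SE 0.048, limma adjusted p 0.0647 with the block and 0.669 without it). SLC6A6 is 1 of 5 members here that the study lists as isoproterenol targets on the basis of separate libraries from a modified line. The modified line overexpressed the receptor. Its list pools targets found in control-guide and in RBM12-depleted neurons, so a target may come from control neurons only. To be listed, a gene had to pass a DESeq2 test and also reach a minimum log2 fold change. The limma calls here set no such minimum, so they and the list are not like for like. Over the shared targets, the study reports correlated expression changes between that line and the parental neurons. The remaining 4 of that list, SLC3A2, SLC6A8, SLC7A5 and SLC7A11, had log2 fold changes of -0.04, 0.01, 0.05 and 0.21, and none (0) was called in either fit (limma adjusted p with the block 0.749, 0.916, 0.522 and 0.781).

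SLC3A2 (4F2hc, CD98), the heavy chain that SLC7A5, SLC7A6, SLC7A8 and SLC7A11 need to reach the surface, had 1520 ± 175 normalized counts without and 1478 ± 116 with isoproterenol. Its light chain SLC7A5 (LAT1), which exchanges large neutral amino acids such as leucine, was at 2077 ± 186 and 2158 ± 256. SLC7A11 had 27.1 to 35.5 normalized counts in the untreated and 20.8 to 48.9 in the isoproterenol replicates, with pair differences of both signs. Of SLC3A2, SLC7A5, SLC7A6 and SLC7A11, SLC7A6 was the 1 called, with the block, and whether its change differed from those of the others was not tested. SLC7A1 (CAT1), the cationic amino acid transporter with the most counts in its family, was higher in each pair by 0.08, 0.06 and 0.04, and the log2 fold change of 0.06 was not called (limma adjusted p 0.830, and 0.318 with the block).

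SLC7A3 (CAT3), a cationic amino acid transporter of brain named here after its values were seen, had the lowest unadjusted p of the members without the block. It had 20.9, 21.3 and 19.7 normalized counts in the untreated and 32.9, 34.6 and 29.7 in the isoproterenol replicates. The groups did not overlap and the pair differences were 0.63, 0.68 and 0.57, but with so few reads the log2 fold change of 0.63 had an SE of 0.26 and was not called (limma adjusted p 0.596, and 0.238 with the block). 

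In the SLC38 family, 4 of 8 members had a positive and 4 a negative log2 fold change, and SLC38A2 was the 1 called. SLC38A1 (SNAT1), next to SLC38A2 on chromosome 12, had 11900, 11146 and 11619 normalized counts in the untreated and 12061, 11391 and 11670 in the isoproterenol replicates. Its pairs differed by 0.02, 0.03 and 0.01, and the 95% interval of its log2 fold change with the block was -0.02 to 0.06, which lies below that of SLC38A2. Without the block the intervals overlapped, at -0.06 to 0.10 for SLC38A1 and -0.01 to 0.55 for SLC38A2. The difference between the genes was not tested. Per kilobase, SLC38A1 was 1.32, 1.55 and 1.44 times SLC38A2 in the untreated and 1.15, 1.33 and 1.14 times in the isoproterenol replicates, lower with isoproterenol in each pair. SLC38A5, a system N carrier of glutamine and named here after its values were seen, had 174, 259 and 153 normalized counts in the untreated and 153, 163 and 145 in the isoproterenol replicates. The pairs differed by -0.19, -0.67 and -0.08, and the log2 fold change of -0.31 was not called (limma adjusted p 0.667, and 0.114 with the block).

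Over the 43 tested members, 25 had a positive and 18 a negative log2 fold change, and the median was 0.01, against 0.00 over all genes tested. The median was 0.04, 0.01 and 0.04 in pairs 1, 2 and 3. In all 3 pairs, 12 members were higher (27.9%, against 18.5% of all genes) and 7 were lower (16.3%, against 17.6%). Family medians ran from -0.38 (SLC32, 1 gene) to 0.10 (SLC36, 2 genes), and several depended on single samples. With 1 sample left out, the median over the tested members ran from -0.0026 (without isoproterenol replicate 3) to 0.039 (without isoproterenol replicate 2). Of the 33 members whose mean reached 50 normalized counts, 22 had a log2 fold change within 0.1 of 0.

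Several members differed by replicate number alike in both groups. Replicate 2 was the lowest of its group in both groups in 14 tested members and the highest in both in 10, against 3082 and 3082 of the 18130 genes tested. It lay below the mean of replicates 1 and 3 by 0.25 (untreated) and 0.28 (isoproterenol) on the log2 scale in SLC38A2, by 0.29 and 0.29 in SLC6A15, by 0.28 and 0.22 in SLC7A6, and by 0.20 and 0.22 in SLC36A1. In all 4 called members this offset had about the size of the isoproterenol difference or exceeded it, and their groups overlapped while every pair differed in the same direction. SLC1A5, a glutamine and neutral amino acid exchanger named here after its values were seen, was further below in replicate 2, with offsets of -0.35 and -0.59, and SLC38A5 was above, with offsets of 0.66 and 0.13.

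**Figure D4:**
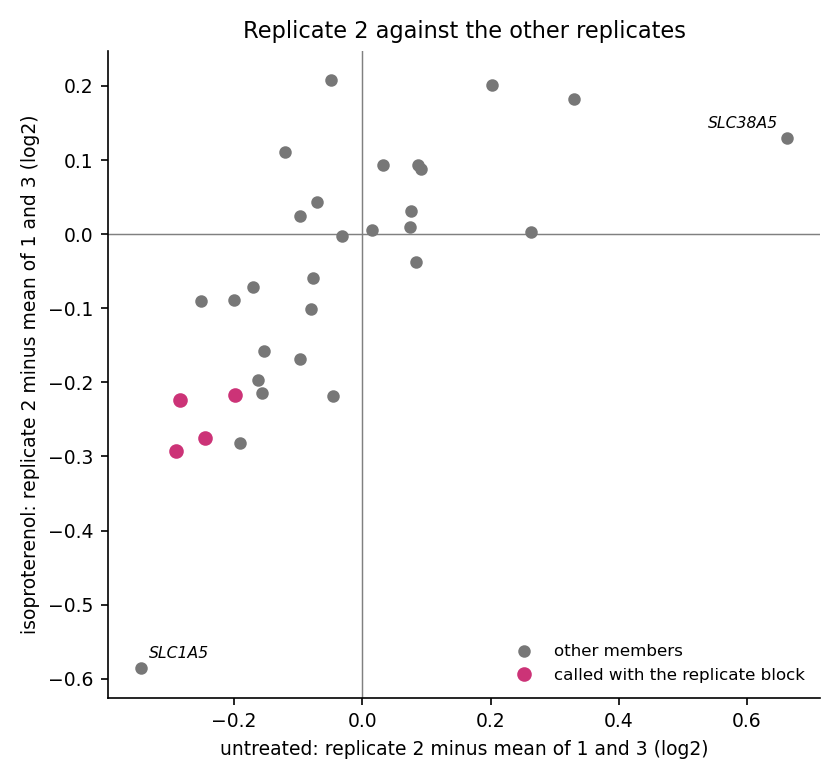
Replicate 2 minus the mean of replicates 1 and 3 on the log2 scale, in untreated (horizontal axis) and isoproterenol samples (vertical axis), for 32 of the 33 tested members whose mean reached 50 normalized counts. Pearson's r across these genes was 0.702, a description over genes that share the same libraries. The 4 called members (pink) lie together at the lower left.

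Genes of neighbouring pathways were taken from 4 lists. Over all genes tested, 2.82% were called higher and 2.06% lower with the block, and no list was tested against these shares. Of 16 tested transporters of other families, most of them of amino acids or choline, 1 was called higher and 1 lower with the block. The choline transporter SLC5A7 went from 7362 ± 828 to 7840 ± 671 normalized counts (log2 fold change 0.09; limma adjusted p 0.00690 with the block and 0.882 without it). SLC43A2 (LAT4), a carrier of large neutral amino acids, went from 1609 ± 106 to 1446 ± 96.1 (log2 fold change -0.15; limma adjusted p 0.0111 with the block and 0.582 without it). Both were also the same way in all 3 pairs.

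Of 19 tested genes of glutamate and GABA metabolism, 1 was called with the block, ALDH5A1, the succinic semialdehyde dehydrogenase that ends GABA breakdown, which was lower (log2 fold change -0.15; limma adjusted p 0.00302 with the block and 0.595 without it). Of 12 tested monoamine and acetylcholine enzymes, 1 was called with the block, the monoamine oxidase MAOA. It went from 215 ± 26.4 to 302 ± 33.3 normalized counts, with pair differences of 0.40, 0.43 and 0.65 (log2 fold change 0.49; limma adjusted p 1.20e-04 with the block and 0.205 without it). Of 21 tested genes of lysosomal amino acid sensing by the mTORC1 pathway, which SLC38A9 and SLC36A1 serve as membrane carriers, none (0) was called in either fit. Under the block, 2 of them were below an unadjusted p of 0.05 (limma), against 16.2% of all genes tested. The median log2 fold changes of the 4 lists were 0.06, -0.02, 0.12 and 0.00.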

How the data were processed

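Poly(A) RNA-seq libraries of 6 samples (3 untreated, 3 isoproterenol, grouped and numbered by their titles) were aligned by the authors to GRCh38 with STAR and counted per gene with featureCounts. The versions, the annotation and the strand setting are not given in the sources used here. Deposited values are a signal, the count of a gene divided by the authors' DESeq2 size factor for that sample. Whole reads were recovered for 100% of the values (within 0.01 reads), which gave the depth of each sample. The table held 0 columns of other samples. Replicates of a group were distinct libraries (chi-square per degree of freedom 3.25 to 5.31).

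Genes with more than 5 reads in at least 4 samples were tested (18130 of 19823) with limma 3.58.1 in R 4.3.3, with robust moderation and an intensity trend, after taking log2(normalized count + 1). All limma, edgeR and DESeq2 tests were two-sided, with Benjamini-Hochberg adjustment over all genes tested in limma and edgeR. DESeq2 gave no adjusted p for 1406 of these genes without the block and for 5976 with it. Fold changes on this scale understate those of low genes. Samples of the same number deviated together from their group means (r 0.269, 0.493 and 0.388 over 11587 genes), so replicate numbers were treated as pairs. The block value is printed where it changes a call. Because the table held normalized values, edgeR 4.0.16 and DESeq2 1.42.0 were run on recovered reads as alternatives only, and the scripts were tested on simulated data. Positions, transcript lengths and overlaps came from GENCODE release 44 (46 of 46 members found).

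The members and lists were chosen with earlier results of these data known. Members are named when they passed FDR 0.05 in either limma fit, had the highest mean of their family, had groups that did not overlap at a mean of at least 50 normalized counts, define a transmitter or transport system, or are on the study's target list. Any other member is said to be named after its values were seen or is given only in counts, lists of motif matches, or accounts of low members. The values of 1 member are not reported here or drawn in the figures, although it enters the counts.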

Additional observations from a re-analysis of the deposited data

How the results depend on the processing

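With the replicate block in limma, 885 genes and 4 members passed FDR 0.05 in place of 3 and 0. The counts were 977 and 4 with the block in edgeR, 143 and 1 with the block in DESeq2, and 21 genes in DESeq2 without it. Leaving out pair 1, 2 or 3 under the block gave 531, 665 and 456 genes and 3, 3 and 3 members, with fewer samples in the fit. Without the block, leaving out 1 sample gave 2 to 67 genes (67 without isoproterenol replicate 2) and 0 members each time. The block changed the call of no other named member. The number of members above 0 stayed within 1.5 times under every alternative run. The member median, 0.015, turned to -0.0026 without isoproterenol replicate 3 and reached 0.039 without isoproterenol replicate 2, both less than 1 SD between replicates away. With 1 sample left out, family medians ran from -0.060 to 0.0068 (SLC1, above 0 without untreated replicate 3), -0.60 to -0.21 (SLC32), 0.036 to 0.12 (SLC7) and 0.055 to 0.17 (SLC36), and those of SLC3, SLC6, SLC17, SLC18 and SLC38 took both signs. The called members ran from 0.19 to 0.36 (SLC38A2), 0.066 to 0.26 (SLC6A15), 0.10 to 0.28 (SLC7A6) and 0.067 to 0.21 (SLC36A1), lowest without untreated replicate 2 in each, and highest without isoproterenol replicate 2 except SLC7A6, highest without untreated replicate 3.

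Among the named members, signs turned in those that follow, none of them called in either limma fit. SLC1A1 was 0.00032 under total-count scaling, and 0.022 and 0.0047 under the block without pairs 1 and 3. Under the block, SLC6A9 was -0.047 without pair 1 and SLC6A8 -0.028 without pair 3. With 1 sample left out, log2 fold changes ran from -0.080 to 0.0072 in SLC1A2, -0.10 to 0.054 in SLC3A2, -0.072 to 0.028 in SLC6A17, -0.042 to 0.082 in SLC17A6, -0.0067 to 0.040 in SLC38A1, -0.015 to 0.25 in SLC18A2, -0.060 to 0.048 in SLC1A1, -0.040 to 0.084 in SLC6A9, -0.026 to 0.15 in SLC7A5, -0.034 to 0.56 in SLC7A11 and -0.015 to 0.044 in SLC6A8. The causes were not tested. With 3 samples a group and 10 tested members under a mean of 50 normalized counts, intervals of low members span changes larger than those called. No group had the 4 samples that a search for outlying samples needs.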
